A study of Homo sapiens with 54 samples.

Results

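The retinoblastoma (RB) pocket genes and the E2F factor genes were followed across the loss of the paralogous splicing factors TRA2A and TRA2B. The set holds 10 genes, RB1, RBL1, RBL2, E2F1, E2F2, E2F3, E2F4, E2F7, E2F8 and TFDP1, chosen as 2 gene families with earlier results of these data known, of 55906 gene rows in each expression table. Bulk poly(A) RNA-seq was available for 54 libraries in 18 groups of 3, from 4 human cancer cell lines. A549 and NCI-H23 are lung adenocarcinoma lines and LN229 and LN319 are glioma lines; the study describes NCI-H23 and LN319 as TRA2A-dependent and A549 and LN229 as TRA2A-independent. In both lung lines, cells stably expressing the CRISPR interference repressor Zim3-dCas9 from an EF1a-driven lentiviral vector received guides to control loci (Control KD), TRA2A (TRA2A KD), TRA2B (TRA2B KD) or both genes (TRA2A/B DKD) and were collected on day 5. In both glioma lines, cells carried a luciferase (Luc) or a TRA2B cDNA (TRA2B-OE). Lentiviral vectors then brought in Cas9 together with guides to control loci (Control KO), TRA2A (TRA2A KO) or, with luciferase only, TRA2B (TRA2B KO). These cells were collected on day 7. The control libraries therefore also carry the Cas9 or dCas9 protein, a guide vector and, in the glioma lines, a cDNA. Values are TPM, transcript abundances scaled for transcript length and to a common library total, so levels of different genes can be set side by side. The libraries are replicates by their labels, which do not state separate cultures, so p-values measure the spread between these libraries only.

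The RB family of pocket proteins, RB1 (RB), RBL1 (p107) and RBL2 (p130), binds E2F factors and restrains transcription of genes needed for DNA replication. Cyclin D and cyclin E kinases phosphorylate the pocket proteins and release the E2Fs as cells enter S phase, and CDK inhibitors such as p21 and p16 oppose these kinases. E2F1, E2F2 and E2F3 are the activator E2Fs, E2F4 is a pocket-bound repressor, E2F7 and E2F8 are atypical repressors that bind DNA without a DP partner, and TFDP1 (DP1) is the dimerisation partner of the classical E2Fs. RBL1, E2F1, E2F2, E2F7 and E2F8 are themselves known E2F targets whose transcripts rise around the start of S phase, whereas RBL2 is known for its association with quiescence. In bulk RNA, fewer cells in S phase and less RNA per cell cannot be told apart.

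Promoter sequence was examined because several members are regulated by the family itself. RefSeq promoter windows (GRCh38.p14, 250 bases before and 50 after a RefSeq start, 300 in all) were matched by symbol for 9 of the 10 genes, with 11 windows; E2F8 had no match. An E2F site was searched on both strands as TTTCCCGC, TTTCGCGC, TTTGCCGC or TTTGGCGC, and the cell cycle homology region as TTTGAA or TTCGAA, and no match of one overlapped a match of the other in these windows. The RB1 window is no test of the RB1 promoter, because its RefSeq start lies 172706 bases inside the annotated gene. An E2F site lay in 5 of the 11 windows, beside 3.31% of 35116 human promoter windows. These belonged to 5 members (RBL1, E2F1, E2F2, E2F3 and TFDP1) of the 8 with a window within 1000 bases of the annotated gene start. A cell cycle homology region lay in 2 of the 11 windows (1 each of RBL2 and E2F3), a share near the 16.4% of all windows. The sequences of RBL1, E2F1, E2F2 and TFDP1 are shown because they hold an E2F site, and those of RBL2 and E2F7 because they hold none. The letters are given as a description, and nothing about the changes is drawn from them. They are written 5′ to 3′ on the strand of the gene, with the motifs in capitals.
RBL1: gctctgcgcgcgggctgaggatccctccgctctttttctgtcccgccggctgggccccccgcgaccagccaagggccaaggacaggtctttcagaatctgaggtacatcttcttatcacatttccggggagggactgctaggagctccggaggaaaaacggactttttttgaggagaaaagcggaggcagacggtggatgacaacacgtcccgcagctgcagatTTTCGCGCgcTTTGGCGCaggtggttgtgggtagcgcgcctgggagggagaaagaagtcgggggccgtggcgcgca
E2F1: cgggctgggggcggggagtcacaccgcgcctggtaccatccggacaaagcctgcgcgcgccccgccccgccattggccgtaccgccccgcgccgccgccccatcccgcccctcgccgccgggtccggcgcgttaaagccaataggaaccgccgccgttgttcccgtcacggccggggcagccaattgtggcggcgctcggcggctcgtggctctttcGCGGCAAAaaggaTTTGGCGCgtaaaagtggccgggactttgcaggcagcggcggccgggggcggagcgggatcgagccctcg
E2F2: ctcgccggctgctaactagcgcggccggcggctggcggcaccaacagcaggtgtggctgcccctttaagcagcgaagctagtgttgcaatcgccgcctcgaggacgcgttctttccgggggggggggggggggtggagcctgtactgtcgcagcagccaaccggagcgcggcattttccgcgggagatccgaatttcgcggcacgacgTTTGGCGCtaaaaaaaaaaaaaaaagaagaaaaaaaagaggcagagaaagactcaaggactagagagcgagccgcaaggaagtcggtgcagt
TFDP1: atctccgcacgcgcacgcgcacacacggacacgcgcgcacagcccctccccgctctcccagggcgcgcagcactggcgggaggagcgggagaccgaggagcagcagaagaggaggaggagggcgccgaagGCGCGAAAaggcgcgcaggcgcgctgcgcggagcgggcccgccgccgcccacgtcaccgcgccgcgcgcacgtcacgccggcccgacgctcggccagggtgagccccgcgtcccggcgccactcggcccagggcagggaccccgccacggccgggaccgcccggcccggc
RBL2: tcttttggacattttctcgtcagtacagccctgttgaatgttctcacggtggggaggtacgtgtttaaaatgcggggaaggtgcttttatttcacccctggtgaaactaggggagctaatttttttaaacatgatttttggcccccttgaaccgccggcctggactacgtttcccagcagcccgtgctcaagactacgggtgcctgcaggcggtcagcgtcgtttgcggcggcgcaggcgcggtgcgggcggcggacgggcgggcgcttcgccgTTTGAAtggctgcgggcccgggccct
E2F7: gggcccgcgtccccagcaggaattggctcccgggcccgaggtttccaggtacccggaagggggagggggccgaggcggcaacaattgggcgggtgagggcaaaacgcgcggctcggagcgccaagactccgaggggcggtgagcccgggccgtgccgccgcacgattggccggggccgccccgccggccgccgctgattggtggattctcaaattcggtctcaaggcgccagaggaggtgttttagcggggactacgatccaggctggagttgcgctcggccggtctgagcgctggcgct

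The windows are chr20:37095948-37096247 (minus strand) for RBL1, chr20:33686336-33686635 (minus) for E2F1, chr1:23531184-23531483 (minus) for E2F2, chr13:113584503-113584802 (plus) for TFDP1, chr16:53434221-53434520 (plus) for RBL2 and chr12:77065520-77065819 (minus) for E2F7. Positions of sites count from the RefSeq start of each window, negative before it, which in RBL2 lies 494 bases inside the annotated gene. In RBL1 the 2 sites, TTTCGCGC and TTTGGCGC, began at -26 and -16. In E2F1 they began at -33, as TTTGCCGC on the opposite strand, and at -20, as TTTGGCGC. The E2F2 site, TTTGGCGC, began at -42 and the TFDP1 site, TTTCGCGC on the opposite strand, at -120. RBL2 held TTTGAA from position 25. A match describes these letters only, and binding was not measured.

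All 10 genes passed the expression filter of each line, which kept genes that reached 1 TPM in 4 libraries or more. TFDP1 and E2F4 were the most abundant members in the controls, except that E2F1 ranked second in LN229 and LN319. Mean TFDP1 was 83.2 TPM in A549 Control KD, 101.8 in NCI-H23 Control KD, 132 in LN229 Luc Control KO and 201 in LN319 Luc Control KO. E2F1 ranged from 31.1 ± 3.18 TPM (SD, n = 3) in NCI-H23 to 92.5 ± 28.8 in LN229. E2F2 was lowest in A549 (9.32 ± 5.26 TPM) and near 28 TPM in both TRA2A-dependent lines (28.6 ± 0.815 and 28.0 ± 1.56). RB1 itself was detected in every library, with 29.7 ± 2.29 TPM in LN229, 16.5 ± 1.66 in A549, 13.8 ± 0.367 in NCI-H23 and 11.4 ± 2.41 in LN319. These levels come from separately scaled tables and the lines were not tested against each other.

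The targeted transcripts were lower in the groups labelled for them, to different degrees and in 1 group without passing the test. TRA2A fell from 75.1 ± 5.08 to 7.18 ± 2.81 TPM in A549 TRA2A KD and TRA2B from 137.3 ± 3.17 to 13.3 ± 0.856 TPM in TRA2B KD, and in the double knockdown they were 10.4 ± 0.693 and 22.4 ± 4.72 TPM. In NCI-H23 the double knockdown held 21.5 ± 1.58 TPM of TRA2A (controls 104.6) and 23.3 ± 1.2 TPM of TRA2B (controls 92.2). In the glioma lines more of each targeted transcript remained, with TRA2A at 68.8 ± 4.82 TPM after TRA2A KO in LN229 against 109.3 ± 3.31, and at 35.5 ± 2.44 against 106.9 ± 5.65 in LN319. In the TRA2B-OE cells TRA2A KO left 69.9 ± 5.20 TPM of TRA2A against 80.2 ± 4.85 in LN229, which did not pass (log2 fold change -0.22, adjusted p = 0.0793 in limma), and 48.1 ± 4.95 against 91.1 ± 2.80 in LN319 (-0.87, adjusted p = 0.00091). TRA2B after TRA2B KO was 146.7 ± 3.69 TPM in LN229 (controls 222.3) and 30.8 ± 1.58 TPM in LN319 (controls 87.6), and TRA2B-OE Control KO held 832 and 765 TPM. The other paralog was not constant. TRA2A after TRA2B KO rose to 169.4 TPM in LN229 (log2 fold change 0.59, adjusted p = 0.00553 in limma). It fell to 90.5 TPM in LN319 (-0.35, adjusted p = 0.00396). In NCI-H23, TRA2B rose in TRA2A KD (0.58, adjusted p = 0.0237) and TRA2A in TRA2B KD (0.46, adjusted p = 0.0259). Neither passed in A549. TRA2B after TRA2A KO with luciferase passed in neither glioma line. Transcript levels do not measure the protein that remained. Library sums of TPM lay between 928908 and 964610, and TPM keep no read depth. The mitochondrial share of TPM ran from 6.02% to 8.31% in LN229, 12.1% to 20.6% in LN319, 15.4% to 23.8% in A549 and 17.8% to 33.4% in NCI-H23. A549 Control KD replicate 3 stood apart, with a median correlation of 0.837 to the other libraries of its line, and replicate 1 of the LN229 controls stood apart for the members themselves. Of cell type markers, KRT18 was high in both lung lines (2804 and 1155 TPM in controls) while NKX2-1 was listed at 0 in A549 controls and SFTPB was near 0 in both. In LN319, SOX2 (402 TPM) was high while GFAP (2.13 TPM) was low and OLIG2 and S100B were near 0, and the epithelial CDH1 reached 123 TPM. PTPRC, the leukocyte marker, was near 0 in all lines.

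The first comparison asked whether losing one paralog changed the RB and E2F genes. With a single knockdown, 0 of the 10 genes passed an adjusted p of 0.05 in any of 4 comparisons (limma, Benjamini-Hochberg adjustment over all genes), while 0.201% of all tested genes were called in A549 TRA2A KD, 0.341% in A549 TRA2B KD, 0.976% in NCI-H23 TRA2A KD and 0.196% in NCI-H23 TRA2B KD. E2F2 in A549 TRA2B KD had the lowest log2 fold change of these, -0.50, with an adjusted p of 0.406 in limma. E2F4 in NCI-H23 TRA2B KD had the highest, 0.40, adjusted p = 0.432. In A549, E2F1 was 29.9, 38.4 and 29.0 TPM in TRA2A KD and at 31.1, 30.0 and 29.9 TPM in TRA2B KD, beside 29.1, 33.7 and 33.8 TPM in Control KD. In NCI-H23, E2F4 was 131, 124 and 127 TPM in TRA2B KD and 70.1, 101 and 99.7 TPM in the controls. The mitochondrial share of TPM was 17.8%, 19.3% and 17.9% in TRA2B KD and 31.9%, 23.1% and 24.9% in the controls. Its part in the E2F4 values was not tested.

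The double knockdown lowered most of the set. In A549 TRA2A/B DKD 6 of 10 genes fell and 0 rose, beside 30.6% of all genes changed (16.3% fell and 14.3% rose). In NCI-H23 TRA2A/B DKD 7 of 10 fell and 0 rose, beside 43.2% of all genes changed (23.2% fell and 20% rose). The 6 genes that fell in A549, RB1, RBL1, E2F1, E2F2, E2F8 and TFDP1, also fell in NCI-H23, where E2F7 was the seventh. With a fold change beyond 1 on the log2 scale as well, 2 fell in A549 and 4 in NCI-H23, beside 5.27% and 5.74% of all genes that fell so far. Their median log2 fold change was -0.56 (A549) and -0.70 (NCI-H23), against 0.03 and 0.02 over all genes. Fold changes are differences of log2(scaled TPM + 0.1) and were scaled across genes, so they differ from ratios of the TPM printed here. In the NCI-H23 double knockdown this matters for genes with small changes. On TPM as deposited the log2 fold change there was -0.17 in place of -0.33 for RBL1, 0.25 in place of 0.09 for RBL2, and 0.078 in place of -0.078 for E2F3.

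**Figure D1:**
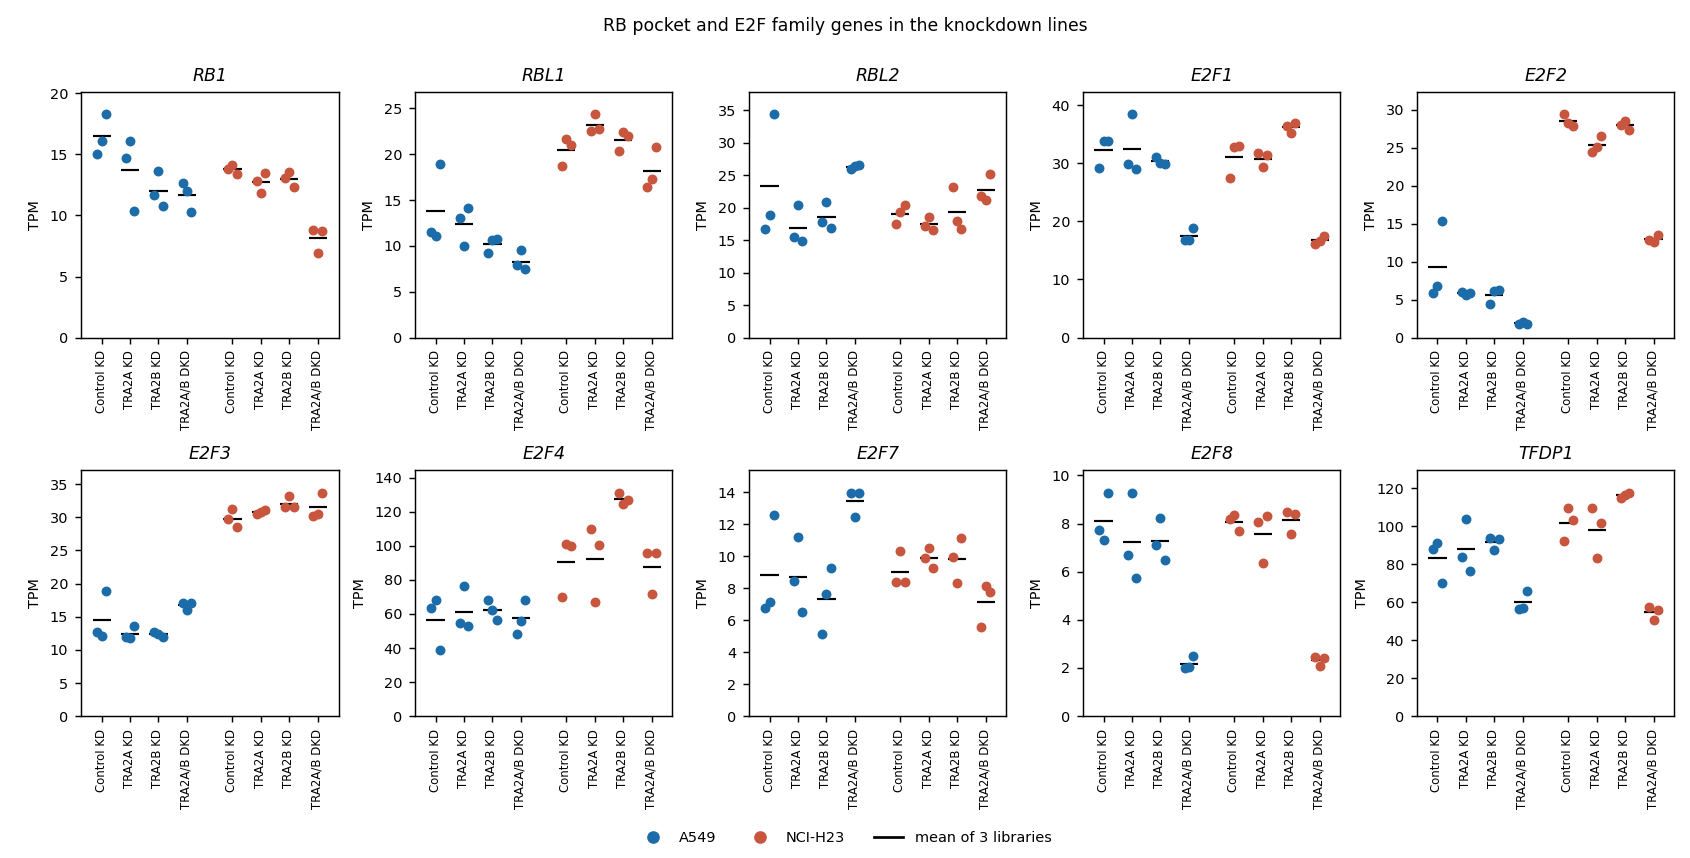
TPM of the 10 genes in every knockdown library of A549 (blue) and NCI-H23 (red), by group, with a bar at the mean of 3 libraries; each vertical axis starts at 0. RB1, E2F1, E2F2, E2F8 and TFDP1 lay below the controls in all 3 TRA2A/B DKD libraries of both lines, and RBL2 lay above the NCI-H23 controls, without passing the test.

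Among the activator E2Fs, E2F1, the best-known S phase inducer, was 29.1, 33.7 and 33.8 TPM in A549 Control KD and 16.8, 16.7 and 18.8 TPM in the double knockdown. Its groups did not overlap, and it fell by 0.96 on the log2 scale (SE 0.106, adjusted p = 7.4e-05 in limma). In NCI-H23 it went from 27.4, 32.9 and 33.0 to 16.1, 16.6 and 17.4 TPM, a log2 fold change of -1.04 (SE 0.0638, adjusted p = 6.01e-07). E2F2 was 5.81, 6.78 and 15.4 TPM in A549 Control KD and 1.85, 2.01 and 1.74 TPM in the double knockdown, the lowest mean of any member there (log2 fold change -2.20, SE 0.272, adjusted p = 0.00016 in limma). The high control value was replicate 3, and without that library the fold change was -1.84 (adjusted p = 6.86e-05). In NCI-H23, E2F2 went from 29.5, 28.3 and 27.9 TPM to 12.9, 12.6 and 13.5 TPM (log2 fold change -1.28, SE 0.0718, adjusted p = 3.27e-07). E2F3, the third activator, was 12.8, 12.1 and 18.8 TPM in A549 controls and 17.1, 16.1 and 17.01 TPM in the double knockdown, and 29.7, 31.2 and 28.5 against 30.2, 30.5 and 33.7 TPM in NCI-H23. It did not pass in either line (log2 fold changes 0.15, adjusted p = 0.392, and -0.078, adjusted p = 0.361, limma). The ratio of E2F3 to E2F1, each per length, was 0.451 in A549 Control KD and 0.961 in TRA2A/B DKD, and 0.966 and 1.88 in NCI-H23.

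The repressor E2Fs split. E2F8 had the largest decrease of any member in NCI-H23 and the second largest in A549. In A549 it was 7.73, 7.31 and 9.28 TPM in the controls and 1.99, 2.03 and 2.49 TPM in the double knockdown, a log2 fold change of -1.93 (SE 0.183, adjusted p = 2.81e-05 in limma). In NCI-H23 it was 8.17, 8.36 and 7.70 TPM against 2.45, 2.10 and 2.44 TPM (log2 fold change -1.91, SE 0.121, adjusted p = 8.11e-07). Its paralog E2F7, which pairs with E2F8 in repressing E2F targets, did not show the same change. In A549, E2F7 was 6.74, 7.13 and 12.6 TPM in the controls and 13.98, 12.4 and 13.96 TPM in the double knockdown (log2 fold change 0.58, SE 0.249, adjusted p = 0.1 in limma), and the groups overlapped only at control replicate 3. Without that library the log2 fold change was 0.80 and passed (adjusted p = 0.0283). In NCI-H23, E2F7 was 8.38, 10.3 and 8.37 TPM in the controls and 5.58, 8.14 and 7.74 TPM in the double knockdown (log2 fold change -0.50, SE 0.161, adjusted p = 0.028), a call lost when Control KD replicate 1 or 2 or TRA2A/B DKD replicate 1 or 3 was left out, on TPM as deposited (-0.34, adjusted p = 0.112) and when the model held just both groups (adjusted p = 0.0656). E2F4 did not pass in either line. It was 63.3, 67.9 and 38.7 TPM in A549 controls and 48.0, 56.1 and 68.0 TPM in the double knockdown (log2 fold change -0.034, adjusted p = 0.938), a difference near 0 whose sign turned under other settings. In NCI-H23 it was 70.1, 101 and 99.7 against 95.7, 71.4 and 95.8 TPM (log2 fold change -0.19, adjusted p = 0.38).

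The dimerisation partner TFDP1 was 87.9, 91.5 and 70.4 TPM in A549 Control KD and 56.7, 57.2 and 66.0 TPM in the double knockdown (log2 fold change -0.55, SE 0.16, adjusted p = 0.0246 in limma). The groups did not overlap, although this call was lost in 7 of 15 alternatives, 4 of which left out 1 library: Control KD replicate 1 or 2, or TRA2A/B DKD replicate 1 or 2. The other 3 were no expression filter, a model of just both groups, and a log2 fold change beyond 1 as well. In NCI-H23 TFDP1 went from 92.3, 110 and 103 TPM to 57.5, 50.6 and 56.1 TPM (log2 fold change -1.05, SE 0.0812, adjusted p = 3.16e-06).

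The pocket genes split between RB1 and RBL1, which fell, and RBL2, which did not. RB1 was 15.1, 16.1 and 18.3 TPM in A549 controls and 12.6, 12.01 and 10.3 TPM in the double knockdown (log2 fold change -0.58, SE 0.161, adjusted p = 0.02 in limma), and the call was lost on unscaled TPM and without TRA2A/B DKD replicate 3. RB1 in NCI-H23 fell from 13.8, 14.2 and 13.4 TPM to 8.84, 6.96 and 8.72 TPM (log2 fold change -0.91, SE 0.093, adjusted p = 2.19e-05). RBL1, the S phase pocket gene, was 11.5, 11.1 and 18.9 TPM in A549 controls and 7.93, 9.52 and 7.43 TPM in the double knockdown (log2 fold change -0.77, SE 0.196, adjusted p = 0.0128), a call also lost without TRA2A/B DKD replicate 3. The NCI-H23 libraries held 18.7, 21.6 and 21.0 TPM against 16.4, 17.3 and 20.8 TPM, with 1 double knockdown library inside the control range (log2 fold change -0.33, SE 0.0858, adjusted p = 0.00959, lost on unscaled TPM). RBL2 was 16.7, 18.9 and 34.4 TPM in A549 controls and 25.99, 26.4 and 26.6 TPM in the double knockdown (log2 fold change 0.17, adjusted p = 0.509 in limma). Without control replicate 3, the source of the 34.4 TPM, its log2 fold change was 0.42 and passed (adjusted p = 0.0234). In NCI-H23 RBL2 was 17.4, 19.4 and 20.4 TPM against 21.8, 21.2 and 25.2 TPM, and did not pass (log2 fold change 0.09, adjusted p = 0.52).

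Ratios within a library, which do not depend on scaling, restate these splits from the same TPM. They were chosen after the values were seen and are no separate test. The ratio of E2F7 to E2F8 ran from 0.871 to 1.35 in A549 Control KD and was 7.04, 6.14 and 5.62 in TRA2A/B DKD. In NCI-H23 it was 1.03, 1.24 and 1.09 against 2.28, 3.87 and 3.18. The ratio of RBL2 to RBL1 was 1.45, 1.71 and 1.82 in A549 controls and 3.28, 2.77 and 3.58 in the double knockdown, and 0.93, 0.896 and 0.973 against 1.33, 1.22 and 1.21 in NCI-H23. In all 4 cases the groups did not overlap, and neither did those of E2F3 to E2F1, E2F3 to E2F2 and E2F4 to TFDP1 in either line. RBL2 made up 42.6% of the summed pocket gene TPM in A549 controls and 57% in the double knockdown, and 35.7% and 46.3% in NCI-H23.

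**Figure D2:**
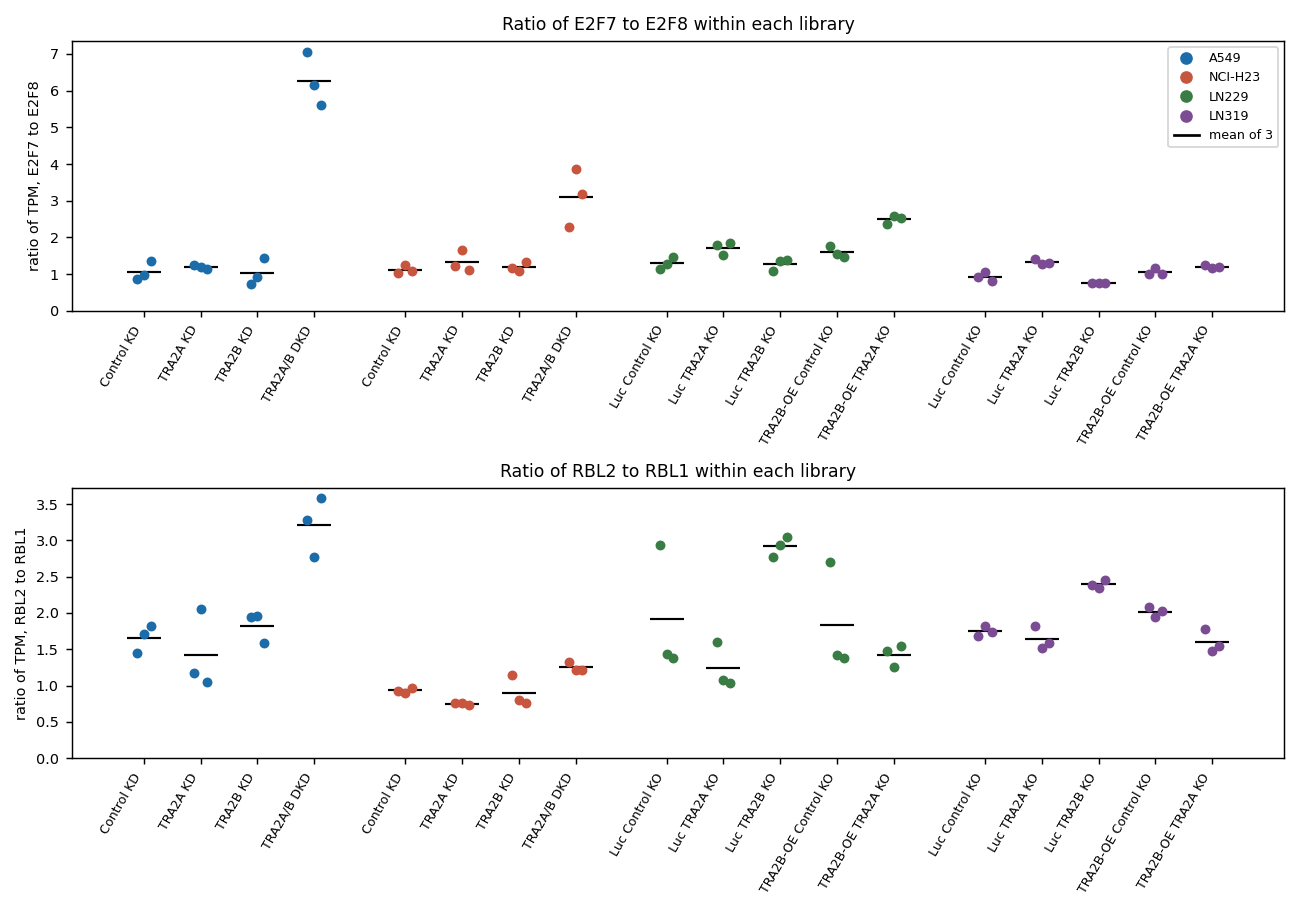
Ratio of TPM of E2F7 to E2F8 (top) and of RBL2 to RBL1 (bottom) in each library of the 18 groups, coloured by cell line, with a bar at the mean of 3; both axes start at 0. E2F7 to E2F8 was highest in the A549 double knockdown (mean 6.26), followed by the NCI-H23 double knockdown (3.11).

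Whether the double knockdown exceeded the sum of the single ones was tested by the difference between the double effect and both single effects added on the log2 scale. The losses were not of equal depth. In NCI-H23, TRA2A was 6.84 TPM in TRA2A KD and 21.5 in the double knockdown, and TRA2B 9.75 in TRA2B KD and 23.3. In A549 these values were 7.18 and 10.4, and 13.3 and 22.4 TPM. In A549, 4 of the 10 genes passed, all lower than the sum, beside 14.7% of all genes: E2F1 (-1.12, adjusted p = 0.000909 in limma), E2F8 (-1.83, adjusted p = 0.00128), TFDP1 (-1.01, adjusted p = 0.014) and E2F2 (-1.32, adjusted p = 0.0433), of which E2F2 was lost in 16 of 20 alternatives. In NCI-H23, 6 passed, again all lower, beside 21.0% of all genes. These were E2F8 (-1.72, adjusted p = 9.46e-05), E2F1 (-1.16, adjusted p = 1.83e-05), TFDP1 (-1.09, adjusted p = 0.000129), E2F2 (-0.98, adjusted p = 0.000116), RB1 (-0.61, adjusted p = 0.00788) and RBL1 (-0.49, adjusted p = 0.0152, lost on TPM as deposited at -0.44, adjusted p = 0.0526).

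Other genes of the network were measured in both double knockdowns. E2F5, which like E2F4 acts with RBL2, fell from 16.2, 18.4 and 18.3 to 9.02, 7.61 and 10.2 TPM in A549 (log2 fold change -1.06, adjusted p = 0.000113 in limma) and from 7.11, 7.61 and 7.25 to 3.84, 2.02 and 2.56 TPM in NCI-H23 (-1.55, adjusted p = 0.000166). E2F6, a repressor that acts without pocket proteins, rose in both (0.66 and 0.48, adjusted p = 0.00393 and 0.00143). TFDP2 passed in neither. Of 7 tested G1 cyclin and RB kinase genes in A549, 5 fell and 0 rose, and of 8 in NCI-H23, 5 fell and 1 rose. Of all genes, 16.3% fell in A549 and 23.2% in NCI-H23. CCNE1, cyclin E1, fell by 0.71 and 1.23 on the log2 scale, CDK2 by 0.89 and 0.81, CCNE2 by 0.87 and 0.76, CDK4 by 0.56 and 0.29 and CCND3 by 0.33 and 0.57, while CCND2 rose in NCI-H23 (0.70) and CCND1 and CDK6 passed in neither.

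Of the CDK inhibitor genes, 1 rose and 1 fell of 4 tested in A549, and 3 rose and 2 fell of 7 in NCI-H23, beside the 30.6% and 43.2% of all genes that changed. CDKN1A, which encodes p21, rose from 154, 184 and 161 to 612, 649 and 696 TPM in A549 (log2 fold change 1.90, SE 0.11, adjusted p = 1.36e-06 in limma). In NCI-H23 it rose from 74.6, 96.4 and 88.1 to 332, 287 and 331 TPM (1.72, SE 0.072, adjusted p = 5.27e-08). CDKN2C, p18, fell in both (-0.85 and -1.51), and CDKN2A, p16 and ARF, was listed at 0 in A549 controls and fell in NCI-H23 (-0.71). CDKN1B and CDKN1C rose in NCI-H23 (0.20 and 1.07, adjusted p = 0.041 and 0.0459). Of 8 genes of the MuvB core and its MYB and FOXM1 partners, 0 rose and 4 fell in A549 (median log2 fold change -0.40) and 2 rose and 3 fell in NCI-H23 (median 0.14). MYBL2 and FOXM1, factors that act with the MuvB complex on G2/M genes, fell by 2.05 and 1.78 in A549 and by 1.68 and 1.22 in NCI-H23.

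Of 34 G1/S genes regarded as E2F targets, 31 fell in A549 and 32 in NCI-H23, beside 16.3% and 23.2% of all genes. Their median log2 fold changes were -1.06 and -0.765, and 0 rose in either. RRM2, a subunit of ribonucleotide reductase, fell by 2.87 in A549, and MCM3, of the replicative helicase, fell in both (-1.63 and -1.45). Of 20 G2/M genes 19 fell in each line (medians -1.53 and -0.876), among them PLK1, a mitotic kinase (-1.81 and -1.25). In the 4 single knockdowns 0 of the 34 and 0 of the 20 passed, where only 0.196% to 0.976% of all genes did.

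**Figure D3:**
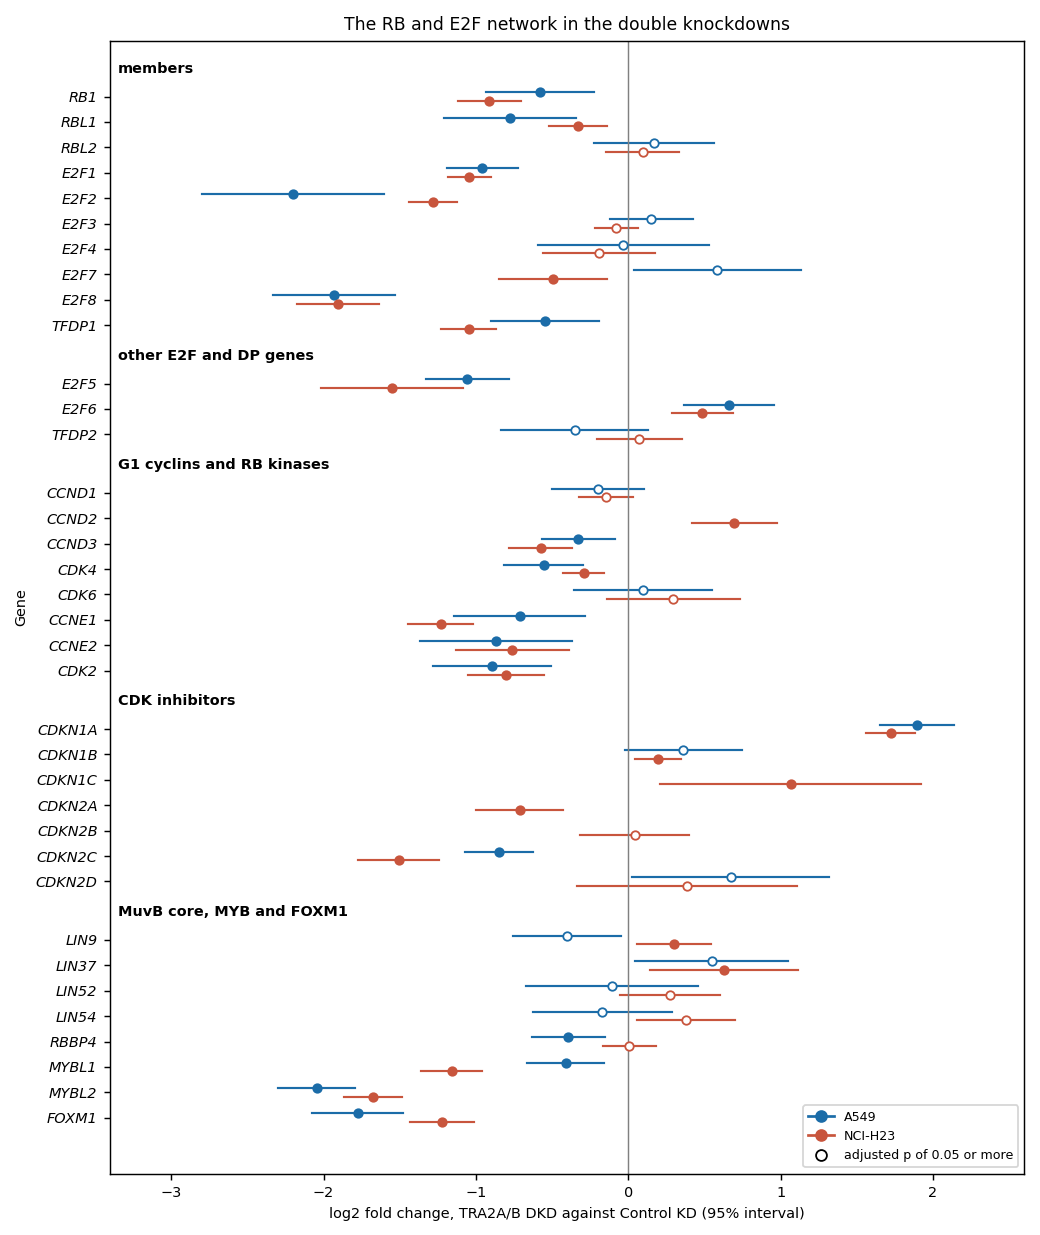
Log2 fold change with 95% interval in TRA2A/B DKD against Control KD for the 10 genes and 4 related gene lists, in A549 (blue) and NCI-H23 (red); open points did not pass an adjusted p of 0.05, and a missing point is a gene that failed the expression filter. E2F2, E2F8, MYBL2 and FOXM1 lie far to the left and CDKN1A to the right in both lines.

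In the glioma lines the guides targeted 1 paralog at a time. In LN229, 0 of the 10 genes passed after TRA2A KO (3.68% of all genes called), TRA2B KO (0.568%), TRA2B overexpression (1.03%) or TRA2A KO with TRA2B overexpression (6.07%). Replicate 1 of both control groups differed from the other controls. E2F1 was 59.3, 108 and 111 TPM in Luc Control KO, 55.0, 106 and 109 TPM in TRA2B-OE Control KO and 59.4, 57.9 and 58.4 TPM in TRA2B KO. Replicate 1 of both control groups was thus near the level of the TRA2B knockout, and the other control libraries were well above it. In the same 2 libraries E2F8 (10.8 and 9.96 TPM against 20.1 to 21.1), E2F2, E2F7, RBL1 and TFDP1 were also lower than in the other controls, RBL2 was the highest of its group, and the glial marker S100B was higher (834 against 276 and 255 TPM in Luc Control KO, with 937 to 1035 TPM in TRA2B KO). TRA2B itself was 202 TPM in Luc Control KO replicate 1, beside 232 and 234 in the other controls and 143 to 150 in the knockout. Replicate 1 was also lowest for E2F1 in both TRA2A KO groups, by less. It held 89.9 TPM against 129 and 118 with Luc, and 85.9 against 102 and 103 with TRA2B-OE.

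**Figure D4:**
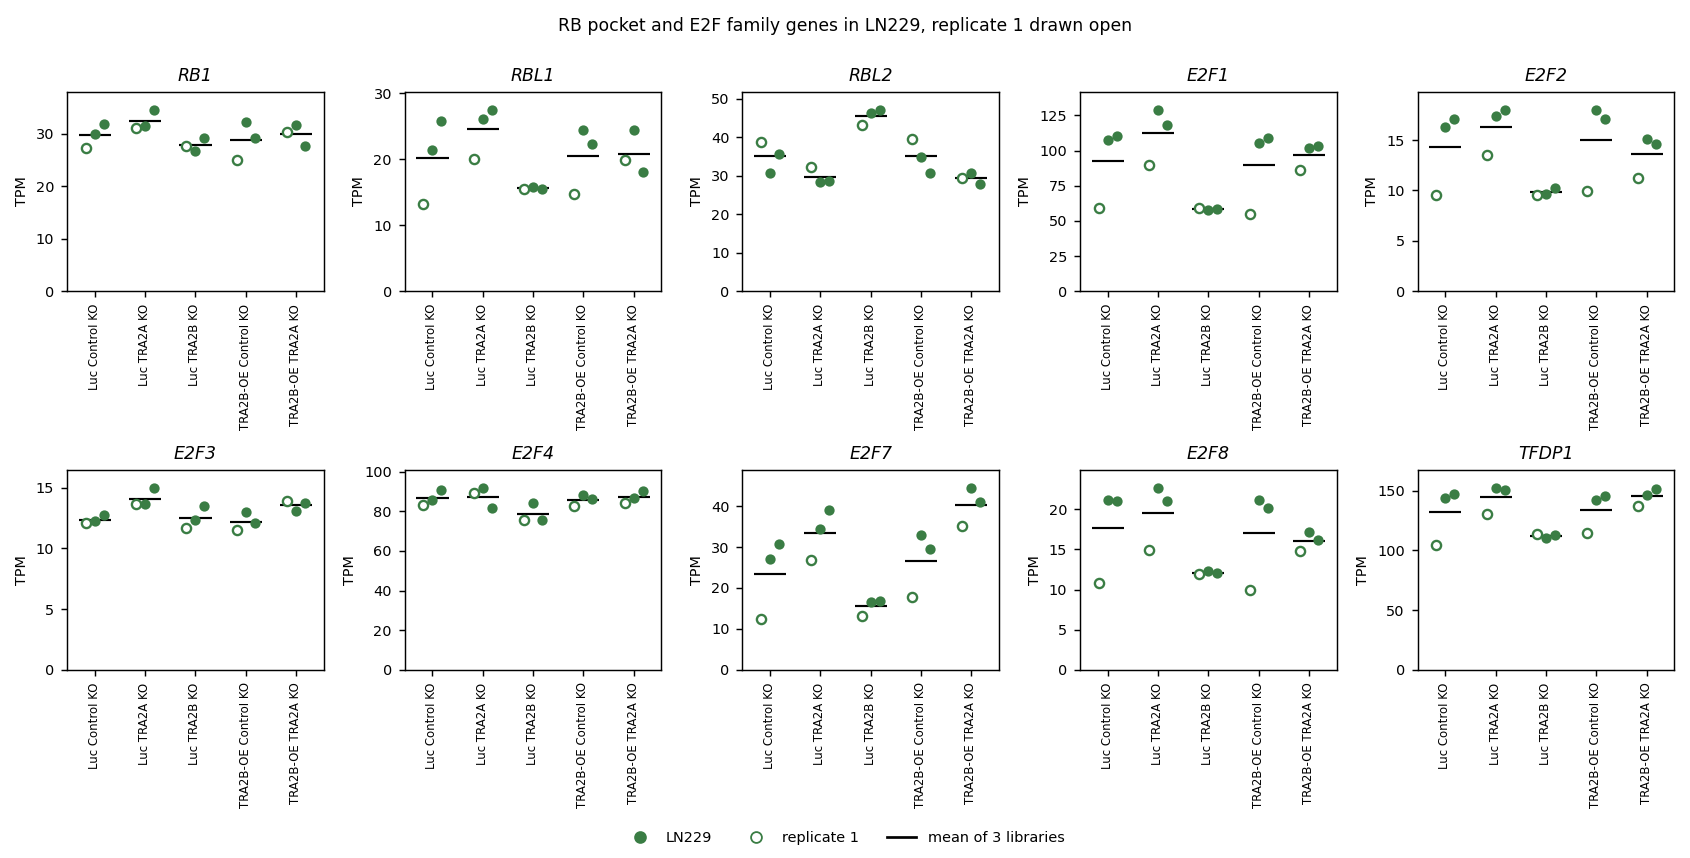
TPM of the 10 genes in the 15 LN229 libraries by group, with replicate 1 drawn as an open circle and a bar at the mean of 3; each vertical axis starts at 0. For E2F1, E2F2, E2F8, RBL1 and TFDP1, replicate 1 of both control groups lies near the 3 TRA2B KO libraries and below the other controls.

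The TRA2B KO calls depended on 1 of these libraries. With all libraries the log2 fold changes were -0.65 for E2F1 (SE 0.274, adjusted p = 0.187 in limma), -0.54 for E2F2, -0.53 for E2F7, -0.52 for E2F8, -0.36 for RBL1, -0.26 for TFDP1, -0.19 for E2F4, -0.13 for RB1, -0.032 for E2F3 and 0.34 for RBL2 (adjusted p = 0.0809). Without Luc Control KO replicate 1, 8 of 10 passed, beside 20.8% of all genes: E2F1 (-0.95, adjusted p = 0.0228), E2F2 (-0.82), E2F4 (-0.23), E2F7 (-0.95), E2F8 (-0.85), RBL1 (-0.65) and TFDP1 (-0.43) lower, and RBL2 higher (0.40, adjusted p = 0.011). With replicate 1 of every LN229 group left out, an alternative added after the data were seen, 7 of 10 passed, beside 29.9% of all genes, among them E2F1 (-0.97, adjusted p = 3.95e-05) and RBL2 (0.43, adjusted p = 0.00385). Luc Control KO replicate 1 is followed here because most of these genes lay near the TRA2B KO level in it. Leaving it out widens the differences by that choice, so the added calls are no separate support for them. What sets replicate 1 apart was not tested.

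After TRA2A KO in LN229, E2F7 had the largest log2 fold change of the 10, without passing. It was 12.3, 27.0 and 30.7 TPM in Luc Control KO and 26.8, 34.4 and 39.0 TPM in TRA2A KO (log2 fold change 0.62, adjusted p = 0.266 in limma), and 17.7, 32.9 and 29.5 against 35.1, 44.3 and 41.0 TPM in the TRA2B-OE cells, whose groups did not overlap (0.61, adjusted p = 0.269 in limma). Without replicate 1 of the matching control group alone these values were 0.21 (adjusted p = 0.75) and 0.32 (adjusted p = 0.625). In the TRA2B-OE cells the TRA2A transcript itself did not pass as lower. With replicate 1 left out everywhere, where 7.29% and 11.1% of all genes passed, E2F7 passed in both (0.36, adjusted p = 0.0371, and 0.43, adjusted p = 0.0155), and E2F2 (-0.27) and E2F8 (-0.33) passed lower in the TRA2B-OE cells. The ratio of E2F7 to E2F8 was 1.78, 1.56 and 1.46 in TRA2B-OE Control KO and 2.37, 2.59 and 2.53 after TRA2A KO in these cells.

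In LN319, the TRA2A-dependent glioma line, changes were small. After TRA2A KO, 2 of 10 fell and 0 rose, beside 14.3% of all genes changed in either direction (1436 fell and 1316 rose of 19303). E2F2 was 26.7, 27.6 and 29.7 TPM in Luc Control KO and 23.5, 23.4 and 22.98 TPM in TRA2A KO (log2 fold change -0.22, SE 0.0616, adjusted p = 0.0296 in limma). E2F8 was 18.2, 18.8 and 21.6 TPM against 15.7, 14.9 and 15.3 TPM (-0.31, SE 0.0925, adjusted p = 0.0413). The groups did not overlap, but the E2F8 call was lost with any 1 library of either group left out, and that of E2F2 without Luc Control KO replicate 3 or TRA2A KO replicate 1 or 2. Both were also lost when the model held just both groups. E2F1 was 80.1, 75.3 and 84.5 TPM in the controls and 75.8, 74.8 and 83.2 TPM in TRA2A KO, ranges that overlapped. In the network, CCND1, cyclin D1, rose from 8.72, 11.2 and 9.85 to 31.2, 27.0 and 30.9 TPM (log2 fold change 1.62, adjusted p = 0.00243 in limma), E2F5 fell (-0.52) and E2F6 rose (0.28). Of the 34 G1/S genes, 2 fell and 1 rose.

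TRA2B KO in LN319, where TRA2A also fell, changed 42.6% of all genes and 2 of the 10. The mitochondrial share of TPM was 20.6%, 18.9% and 18.3% in these libraries and 12.1%, 12.8% and 12.6% in Luc Control KO, and its part in the result was not tested. RBL2 rose from 23.1, 25.6 and 22.2 to 32.1, 29.6 and 31.8 TPM (log2 fold change 0.29, SE 0.0595, adjusted p = 0.00189 in limma), and TFDP1 fell from 188, 196 and 219 to 157, 182 and 176 TPM (-0.34, SE 0.0852, adjusted p = 0.0065). E2F1 did not pass and its libraries overlapped, at 76.3, 84.9 and 85.9 TPM in the knockout. Neither did E2F2, at 29.4, 29.6 and 30.8 TPM. RB1 was 10.4, 14.1 and 9.58 TPM in the controls and 14.04, 15.6 and 15.1 TPM in the knockout (log2 fold change 0.30, adjusted p = 0.122). Of the 34 G1/S genes 15 fell and 3 rose (EZH2, BRCA1 and MCM4), and of 20 G2/M genes 14 fell, with medians of -0.26 and -0.30. Of 6 CDK inhibitor genes 4 fell, CDKN1A (-0.57), CDKN2A (-0.55), CDKN2C (-0.56) and CDKN2D (-0.61).

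TRA2B overexpression in LN319 called 0 of the 10, beside 4.31% of all genes. E2F1 (-0.29, adjusted p = 0.126) and TFDP1 (-0.28, adjusted p = 0.0737, limma) were the lowest. Without TRA2B-OE Control KO replicate 3, 3 of the 10 passed, beside 9.08% of all genes. After TRA2A KO in these cells RBL2 alone passed, beside 2.77% of all genes changed in either direction. It fell from 28.0, 26.7 and 24.8 to 21.8, 21.3 and 19.5 TPM (log2 fold change -0.29, SE 0.0595, adjusted p = 0.0275 in limma). The groups did not overlap, but the call was lost with any 1 library of either group left out and when the model held just both groups. The effect of TRA2A KO was compared between the Luc and TRA2B-OE backgrounds by an interaction term, and 0 of 10 passed in either line, beside 0% of all genes in LN229 and 0.0207% in LN319.

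**Figure D5:**
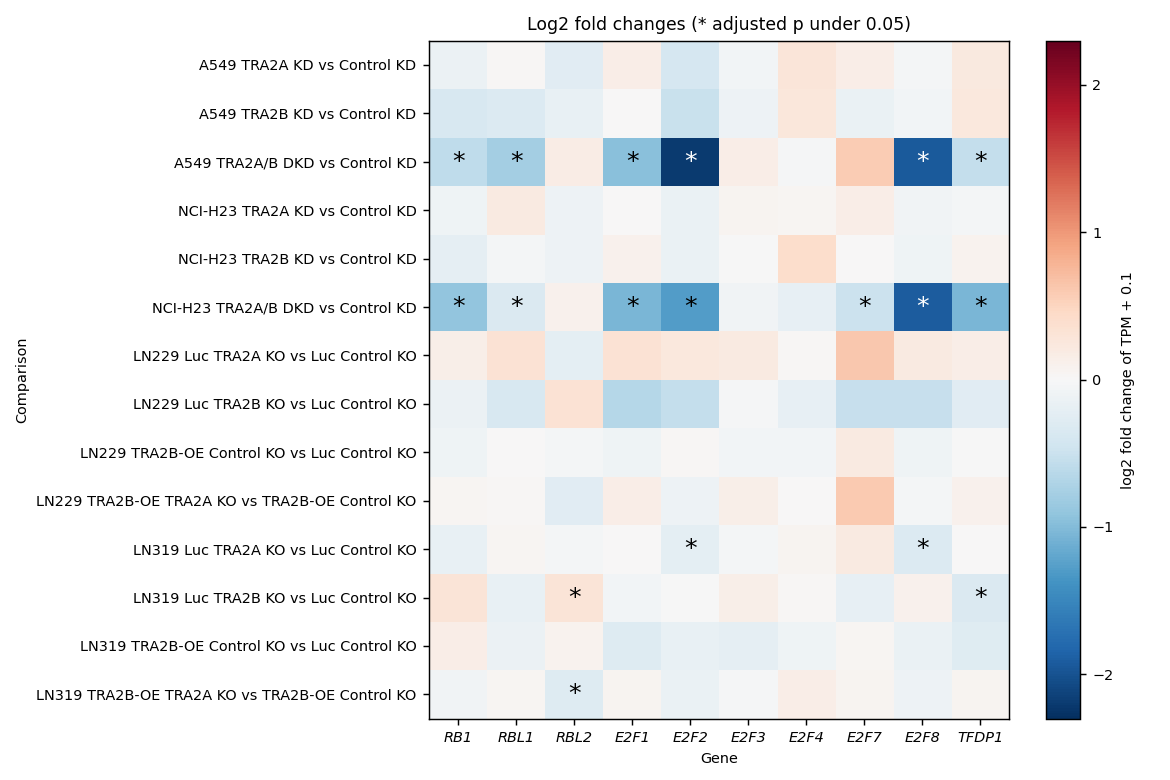
Log2 fold change of each of the 10 genes in the 14 comparisons, blue for lower and red for higher than the matching control, with an asterisk where the adjusted p was under 0.05. The strongest blue cells are E2F2 and E2F8 in the 2 double knockdowns, and no asterisk stands in the single knockdowns or in LN229.

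Across the 54 libraries, after the mean of each line was subtracted, E2F1 varied most closely with E2F8 (Pearson r = 0.906) and TFDP1 (0.9), and E2F2 with E2F8 (0.915). E2F7 and E2F8 gave 0.197, and RBL2 was inverse to E2F1 (-0.571). Among 13381 genes that passed the filter in all lines, those nearest to E2F1 were CDCA5 (0.944), WDR34 (0.942), PKMYT1 (0.941), ATAD2 (0.933) and WDR76 (0.933). Those nearest to E2F7 were ARHGAP29 (0.85), DNMBP (0.833), EGFR (0.831), UGCG (0.819) and DDAH1 (0.819), those nearest to RB1 were PAPD7 (0.797), ATP8B3 (0.791), PCNT (0.79), PANK4 (0.788) and PLCG1 (0.785), and those nearest to RBL2 were RP11-71B7.1 (0.808), BAZ2B (0.774), PCMTD2 (0.773), ARHGEF11 (0.771) and HECTD4 (0.77). These are descriptions over libraries that share groups and treatments, with no test.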

How the data were processed

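Poly(A) RNA-seq of 54 libraries (4 established cell lines, 18 groups of 3) was read as the gene-level TPM the authors deposited, 1 table per line. According to the study's methods the authors quantified transcripts with kallisto 0.48.0 on Gencode v34 (GRCh38); the submitters' processing notes also name STAR 2.7.3. TPM keep no read depth, so a count model, as the authors used, could not be repeated, and the precision is set by 3 libraries a group.

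In R 4.3.3, genes that reached 1 TPM in 4 libraries or more were kept per line (16293 to 19303 genes), TPM were scaled by unweighted trimmed means of M values (trims of 30% and 5%), and log2(scaled TPM + 0.1) was fitted with limma 3.58.1 in 1 model per line holding all its groups, with a trended variance. There were 14 comparisons and 4 tests of differences between effects, two-sided, with Benjamini-Hochberg adjustment over all genes kept. "Rose" and "fell" mean an adjusted p under 0.05. An exact permutation test of 3 against 3 cannot go below 0.1, so none is given. Groups came from the labels, no libraries held identical values and all were used. The steps were tested on simulated data. Figures were drawn with matplotlib 3.10.9.

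The 10 genes and all lists were chosen with earlier results of these data known. Genes named are the 10, TRA2A, TRA2B, all genes of the lists of other E2F, cyclin and CDK inhibitor genes, at most 4 genes of each other list by smallest adjusted p, the 5 genes most like E2F1, E2F7, RB1 and RBL2, and markers; EZH2, BRCA1 and MCM4 in LN319 were named after their values were seen. Promoter windows are RefSeq's (GRCh38.p14). Alternatives changed the filter, pseudocount, normalization, samples fitted, replicate block, threshold and each library in turn.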

Additional observations from a re-analysis of the deposited data

Results flagged for a closer look

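Of 70 pairs of a gene and a contrast that 2 cell lines share, 5 had every library of the treated group on one side of its control mean in 1 line and on the other side in the other line. The difference between the lines was not tested in any of them, since the lines were fitted separately. The same count was not made over all genes, so 5 of 70 is not read as a result about these genes. In the double knockdowns E2F7 was higher in A549 (log2 fold change 0.58) and lower in NCI-H23 (-0.50), and E2F3 was 0.15 in A549 and -0.0776 in NCI-H23. After TRA2A KO with luciferase, E2F3 was 0.20 in LN229 and -0.0452 in LN319. After TRA2B KO, RB1 was -0.13 in LN229 and 0.30 in LN319, and E2F8 was -0.52 in LN229 and 0.10 in LN319. Apart from E2F7 in NCI-H23, none of these values passed the adjusted p of 0.05 in limma. Groups of 3 are too small for the check for single outlying libraries.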

How the results depend on the processing

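Counts of the 10 genes that passed moved by over 1.5 times as follows. With a log2 fold change beyond 1 also required, they became 2 in the A549 and 4 in the NCI-H23 double knockdown, 3 in the NCI-H23 test against the sum of single effects, and 0 in LN319 after TRA2A KO, TRA2B KO and TRA2A KO with TRA2B-OE. With replicate 1 of every LN229 group left out, an alternative added after the data were seen, they became 1 after TRA2A KO, 7 after TRA2B KO and 3 after TRA2A KO with TRA2B-OE. In LN319, TRA2A KO gave 1 without a filter and 0 when the model held just the 2 groups, and TRA2A KO with TRA2B-OE gave 2 on TPM as deposited and 0 in the 2-group model. With 1 library left out, the counts ran from 0 to 8 for TRA2B KO in LN229, 0 to 1 for TRA2A KO, 0 to 3 for TRA2B-OE and 0 to 0 for TRA2A KO with TRA2B-OE in LN319, and from 4 to 8 and 6 to 7 for the A549 and NCI-H23 double knockdowns.

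Over all genes kept, the replicate numbers did not pair the libraries consistently: the correlation of same-numbered deviations ran from -0.154 to 0.212. In 0 of 14 comparisons were all 3 above 0.1. This does not exclude a shared shift in single genes: E2F1 was highest in replicate 3 of every LN319 group. With the replicate block the count became 1 for TRA2B KO in LN229 (RBL2), 1 for TRA2A KO in LN319 and 4 for TRA2B-OE in LN319.

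Over the fits of all 10 genes, values that passed kept their direction in all 242 refits with every library and all 228 with libraries left out, and lost the threshold in 34 and 35. Values that did not pass changed sign in 51 of 1358 and 131 of 1142. The sign of E2F1 after both LN319 knockouts was among those that changed, so the report gives its TPM and no fold change. Single values are followed here for genes that passed and for the others whose fold change is printed. Of these, E2F4 in the A549 double knockdown became 0.0103 with a TPM minimum of 5, 0.0796 when quantiles were equalised and 0.0458 on unscaled TPM, and ran from -0.356 to 0.154 when a library was dropped, turning positive without the first or the second Control KD library or the first double knockdown library. E2F4 in A549 TRA2A KD ran from -0.0594 (without Control KD replicate 3) to 0.469. E2F3 became 0.0781 in the NCI-H23 double knockdown and 0.0112 after TRA2B KO in LN229 on TPM as deposited. The cause of these shifts was not tested. TFDP1 in LN319 TRA2B KO lost its call under quantile normalization (-0.11, adjusted p = 0.166 in limma).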
